A study of Mus musculus with 6 samples.

Results

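The complement system is a set of plasma and cell-surface proteins that marks microbes and dying cells for uptake, and this report describes 9 of its genes in mouse bone marrow cells made to express MN1. The 9 were named as a set: C1qa, C1qb, C1qc, C3, C3ar1, C5ar1, Cfp, Cfb and Hc. Each was read from the probe set annotated with that gene symbol alone. C3 is not analysed here, so 8 genes, each with 1 probe set, were described among 19938 genes with a single-named probe set. The set was selected on the measured log2 values of all 6 arrays in the comparison of MN1 with empty vector, so the values of these 8 genes in that comparison are given as a description with no test.

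In the classical pathway the recognition molecule C1q, built from A, B and C chains, binds antibody or damaged membranes and starts a protease cascade. The alternative pathway amplifies the cascade through the protease factor B, encoded by Cfb, and is stabilised by properdin, encoded by Cfp. Both pathways cleave C3 and then C5, encoded in the mouse by Hc, and release small anaphylatoxin peptides that signal through the receptors C3ar1 and C5ar1 on myeloid cells. Most circulating complement is made by the liver. C1q is made mainly by macrophages and dendritic cells, properdin is stored in neutrophils, and factor B is an inducible product of macrophages and other cells.

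The MN1 group held 3 arrays of bone marrow cells transduced with the MSCV retroviral vector carrying MN1, a transcriptional coregulator that is often highly expressed in acute myeloid leukaemia. The empty vector group held 3 arrays of cells transduced with the same kind of vector without MN1. Cells of both groups were sorted for the fluorescent reporter at 72 hours, GFP by the sample labels but YFP by the series design text. The sources used here give no strain, sex or age of the mice and no species for the MN1 cDNA, and all reporter-positive marrow cells were sorted as one, with no gate for a cell type. The series description speaks of 3 independent experiments.

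Values are log2 expression from one-colour Affymetrix whole-transcript arrays, so a difference of 1 is a 2-fold difference in signal. The array medians over all probe sets lay between 5.82 and 6.01, and the number of arrays limits the precision. Mn1 itself measured 6.47, 6.62 and 6.08 on the 3 MN1 arrays, against 5.34, 5.41 and 4.80 on the 3 empty vector arrays, so the groups did not overlap. The arrays of one group were not alike: along the main axis of variation between them, a principal component holding 36.9% of the variance, MN1 replicate 1 lay at 45.2 and empty vector replicate 2 at -37.1, and the other 4 arrays lay between -12.9 and 4.7. Along the next axis, with 29.2%, the arrays numbered 3 stood apart from the rest, at 34.7 for MN1 and 25.7 for the empty vector, and the other 4 lay between -22.9 and -9.3. Markers of marrow leukocytes were bright on every array, with Ptprc, the pan-leukocyte antigen CD45, between 10.25 and 10.77 on MN1 arrays and between 10.30 and 10.82 on empty vector arrays. The mean of the 6 markers in that list ran from 10.82 to 11.11 with MN1 and from 10.73 to 10.77 with the empty vector. The groups did not overlap on that mean, although 3 markers were higher and 3 lower. Cd34, picked with its values known, was higher with MN1 by 0.91 log2 units. The 6 hepatocyte markers, among them albumin, averaged 4.72 to 4.85 with MN1 and 4.90 to 4.93 with the empty vector.

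Across all genes, limma called 0 genes higher (0.0%) and 0 genes lower (0.0%) at the adjusted threshold of 0.05, with a smallest adjusted p of 0.579. At an unadjusted p under 0.05 there were 832 genes higher (4.17%) and 843 lower (4.23%). That split was 977 to 400 after each array was centred on its median and 561 to 721 after quantile normalization. The split thus has no settled direction. The median log2 difference over all genes was -0.03. Among the 8 complement genes, 5 were higher with MN1 and 3, C5ar1, Cfp and Hc, were lower, although Hc, at -0.03, was at 0.01 after quantile normalization. Their median log2 difference was 1.08. All 5 that were higher, C1qa, C1qb, C1qc, Cfb and C3ar1, had every MN1 array above every empty vector array, a pattern met by 5.71% of all genes. In 4 of them, all but C3ar1, the difference was at least 2-fold, which 0.993% of all genes reached, while 0 of the 8 were at least 2-fold lower, as were 0.381% of all genes. These backgrounds are printed for scale only, since the same comparison was known when the genes were chosen.

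**Figure D1:**
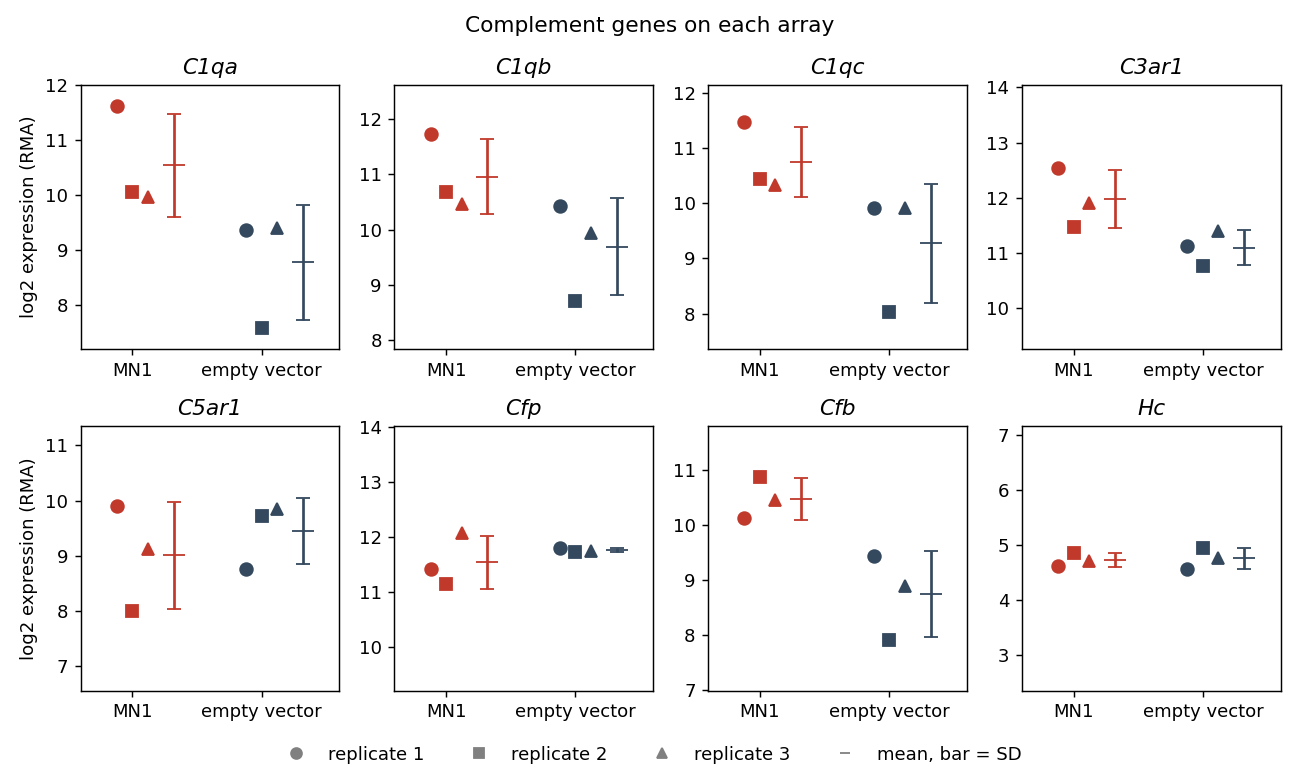
Log2 expression (y axis) of the 8 complement genes on each of the 3 MN1 arrays and 3 empty vector arrays, with group means and SD as bars; every panel spans the same number of log2 units. C1qa, C1qb, C1qc, C3ar1 and Cfb had all MN1 arrays above all empty vector arrays, while C5ar1, Cfp and Hc overlapped.

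The 3 chains of C1q were each higher with MN1. C1qa (probe set 10517517), which encodes the A chain, measured 11.62, 10.05 and 9.96 on MN1 arrays, against 9.37, 7.58 and 9.40 on empty vector arrays. MN1 replicate 1 was the highest array and empty vector replicate 2 the lowest, and the groups were parted by 0.57 log2 units. The difference was 1.76 ± 0.64 (SE, log2; n = 3 each), or 3.39-fold.

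C1qb (probe set 10517508), for the B chain, measured 11.74, 10.69 and 10.46 on MN1 arrays, against 10.42, 8.71 and 9.94 on empty vector arrays. The same arrays were highest and lowest, but the groups were parted by only 0.05. Its log2 difference was 1.28 ± 0.51 (SE), or 2.42-fold.

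C1qc (probe set 10517513), for the C chain, measured 11.47, 10.44 and 10.33 on MN1 arrays, against 9.91, 8.03 and 9.91 on empty vector arrays. Again MN1 replicate 1 was highest and empty vector replicate 2 lowest, with a gap of 0.42 between the groups. Its log2 difference was 1.46 ± 0.58 (SE), or 2.76-fold.

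The chains moved closely together across the 6 arrays. After each gene was centred on its own mean, the root mean square distance between profiles was 0.22 log2 units for C1qb and C1qc, 0.23 for C1qa and C1qc and 0.34 for C1qa and C1qb, against ranges over the arrays of 3.03 to 4.03. The chains did not keep an exact ratio: the within-array log2 difference of C1qa and C1qb averaged -0.42 ± 0.27 on MN1 arrays and -0.91 ± 0.31 on empty vector arrays (SD, n = 3 each), and the groups overlapped. The mean of the 3 chains was 11.61, 10.39 and 10.25 on MN1 arrays, against 9.90, 8.11 and 9.75 on empty vector arrays, a log2 difference of 1.50. Without empty vector replicate 2 that difference was 0.93, or 1.9-fold, and only C1qa and Cfb then remained at least 2-fold higher among the 8 genes. Without MN1 replicate 1 it was 1.07, and 3 of the 8 genes were then at least 2-fold higher.

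The C1q genes lie side by side on mouse chromosome 4, in the order C1qb, C1qc and C1qa with no other protein-coding gene between them in the RefSeq table. RefSeq promoters, 250 bases before to 50 after the start of the gene, were found for 6 of the 8 genes: C1qb, C1qc, C3ar1, C5ar1, Cfp and Hc. The promoters of C1qb (chr4:136886151-136886450) and C1qc (chr4:136892865-136893164), both GRCm38.p6 and both on the minus strand, are shown because these neighbours had nearly the same profile. Capitals mark matches on either strand to AGGAAG, a core recognised by ETS factors such as the myeloid factor PU.1, and to TGCTGA, the core of the element bound by Maf factors.
C1qb: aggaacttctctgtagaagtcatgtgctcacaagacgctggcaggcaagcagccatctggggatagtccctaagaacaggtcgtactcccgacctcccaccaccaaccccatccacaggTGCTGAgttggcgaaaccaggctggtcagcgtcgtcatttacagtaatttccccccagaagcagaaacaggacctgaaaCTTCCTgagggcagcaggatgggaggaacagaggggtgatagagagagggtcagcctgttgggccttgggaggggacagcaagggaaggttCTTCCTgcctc
C1qc: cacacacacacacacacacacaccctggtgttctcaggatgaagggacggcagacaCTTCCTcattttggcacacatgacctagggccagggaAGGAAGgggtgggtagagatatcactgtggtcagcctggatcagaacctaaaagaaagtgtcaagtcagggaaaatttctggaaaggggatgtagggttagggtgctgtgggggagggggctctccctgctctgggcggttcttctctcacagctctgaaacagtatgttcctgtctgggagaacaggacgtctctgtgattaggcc
C1qb held AGGAAG at 2 places and TGCTGA at 1, and C1qc held AGGAAG at 2 places and TGCTGA at 0. Over all 32851 promoters of this length in the table, 35.4% held AGGAAG and 19.5% held TGCTGA. The core of the interferon-stimulated response element, searched on both strands as GAAA and GAAA parted by 2 bases of any kind, was held by 3.44% of promoters and by 0 of the 6. These matches describe letters only, and no binding was measured.

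As a mean, macrophage markers were highest and lowest on the same arrays as C1q. Of 20 listed macrophage markers 19 were measured, 15 of them higher and 4 lower with MN1, and the median log2 difference was 0.68. Their mean level per array ran from 8.23 to 8.67 with MN1 and from 7.73 to 8.17 with the empty vector, so the groups did not overlap, and empty vector replicate 2 was again lowest. Siglec1, the sialoadhesin of tissue macrophages, measured 10.87, 9.03 and 9.49 on MN1 arrays, against 8.37, 7.14 and 8.53 on empty vector arrays. Mertk, a receptor for dying cells, measured 9.80, 8.08 and 8.22 on MN1 arrays, against 7.19, 6.74 and 7.39 on empty vector arrays. Both had MN1 replicate 1 highest and empty vector replicate 2 lowest, as C1q did, and both were picked with their values known. Cd68 and Mrc1 had that order as well, but other markers did not. Adgre1 and Fcgr1, also picked with their values known, were highest on MN1 replicate 3, at 11.82 and 10.76. Their lowest array was empty vector replicate 1, at 10.20 and 8.36.

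The macrophage markers were not all higher with MN1. Slc40a1, the iron exporter of recycling macrophages, averaged 7.29 ± 0.51 on MN1 arrays and 8.43 ± 0.90 on empty vector arrays (SD, n = 3 each). Timd4, a marker of resident macrophages, differed by 0.02, which counts among the 15 higher, and lay between 4.66 and 4.87 on every array. Both were picked with their values known. Timd4 was dim, with 22.6% of genes lower in mean value, so it can show little. Cd163, Cd5l and Spic were dim as well, at 22.2%, 16.5% and 26.4%. The mean of the C1q chains less the mean of the macrophage markers was 2.94, 2.16 and 1.72 on MN1 arrays, against 1.95, 0.37 and 1.59 on empty vector arrays. MN1 replicate 1 stood highest and empty vector replicate 2 lowest on that scale too, and the groups overlapped. The C1q mean ran from 8.11 to 11.61 over the arrays and the macrophage mean only from 7.73 to 8.67. Taking off the narrower mean could hardly change the order, so the kept order is no separate result. Without empty vector replicate 2 the median of the macrophage markers was 0.24, and without MN1 replicate 1 it was 0.42. Markers of the following cell types ran level or lower with MN1. Of monocyte markers 2 of 7 were higher (median -0.10), and of eosinophil and mast cell markers 0 of 9 (median -0.58). Of B cell markers 2 of 6 were higher (median -0.25), and of T cell markers 1 of 5 (median -0.32). Of stromal markers 0 of 6 were higher (median -0.13, with 1 higher after either rescaling). The T cell and stromal lists were dim, with means of 5.07 to 5.51 and 5.60 to 5.93 over the arrays. The dim hepatocyte markers had 1 of 6 higher (median -0.14), and over all genes 8628 were higher and 11310 lower. The marrow leukocyte list, which is not of a single cell type, had 3 of 6 higher (median 0.12). In whole sorted marrow, fewer cells of a type and less RNA per cell cannot be told apart, and the part of macrophage number in the C1q values was not tested.

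**Figure D2:**
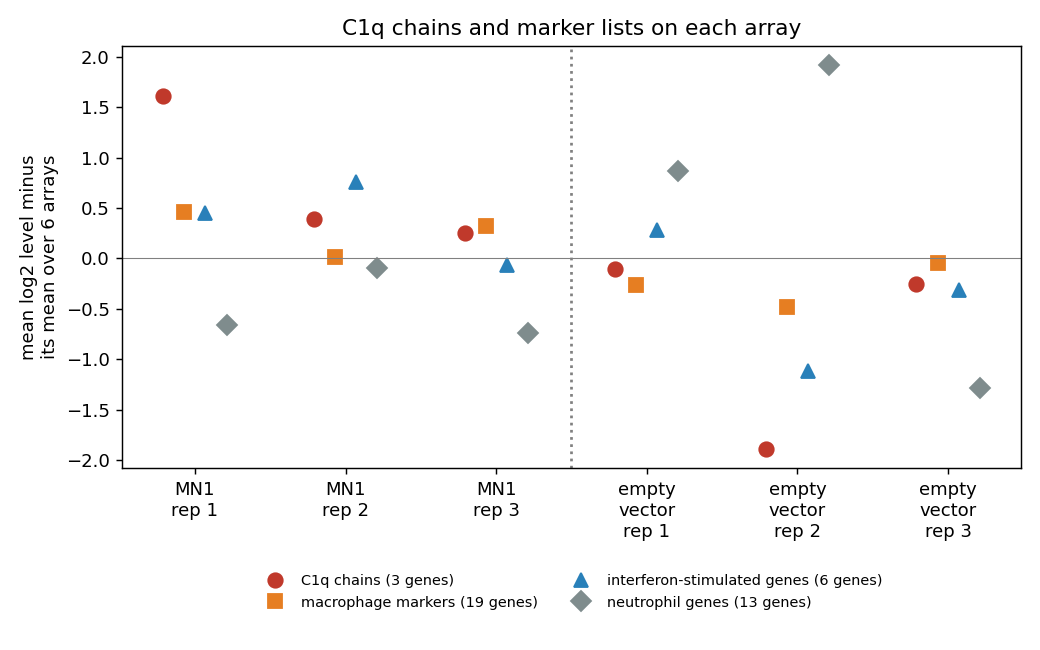
Mean log2 level of the 3 C1q chains, 19 macrophage markers, 6 interferon-stimulated genes and 13 neutrophil genes on each of the 6 arrays (x axis), each less its own mean over the arrays (y axis, log2 units). C1q was highest on MN1 replicate 1 and lowest on empty vector replicate 2, the array with the highest neutrophil mean, 11.72.

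The 8 genes with profiles nearest to the mean of the C1q chains over the 6 arrays, among genes with a range of at least 1, were Rgl1, Abca1, Lhfpl2, Ppbp, Gbp4, Ctsl, Mx2 and Ccl2. Their root mean square distances ran from 0.16 for Rgl1, a regulator of Ral GTPases, to 0.27 for Ccl2, the monocyte chemokine. Abca1, the cholesterol exporter, was at 0.19 and measured 11.00, 10.10 and 10.07 on MN1 arrays, against 9.27, 7.95 and 9.37 on empty vector arrays. Ctsl, a lysosomal protease, was at 0.26 and measured 13.70, 13.18 and 12.65 on MN1 arrays, against 12.73, 10.67 and 12.51 on empty vector arrays. All 8 shared the low value of empty vector replicate 2, and the likeness includes the difference between the groups. The list also held the platelet chemokine gene Ppbp and the antiviral gene Mx2.

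Of the alternative pathway genes, Cfb was higher with MN1 and Cfp was not. Cfb (probe set 10450325) measured 10.12, 10.88 and 10.45 on MN1 arrays, against 9.44, 7.91 and 8.90 on empty vector arrays. The groups were parted by 0.68, the widest gap of the 8 genes, and MN1 replicate 2, not replicate 1, was highest. The difference was 1.73 ± 0.40 (SE, log2; n = 3 each), or 3.33-fold, and it was 1.31 without empty vector replicate 2.

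Cfb lies next to C2, its classical pathway counterpart, on chromosome 17. C2, picked as the neighbour with its values known, measured 4.60, 4.75 and 4.75 on MN1 arrays, against 4.89, 4.81 and 4.84 on empty vector arrays. It was dim on every array and its log2 difference was -0.14 ± 0.09 (SE), with an adjusted p of 0.638 (limma, Benjamini-Hochberg).

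Cfb is known as an interferon- and cytokine-inducible gene. All 6 measured interferon-stimulated genes, of 8 listed, were higher with MN1, 5 of them after quantile normalization, and their median log2 difference was 1.06. Their mean level ran from 9.14 to 9.96 with MN1 and from 8.09 to 9.49 with the empty vector, so the groups overlapped; MN1 replicate 2 was highest and empty vector replicate 2 lowest, the same arrays as for Cfb. Irf7, an interferon-response transcription factor, measured 11.67, 11.35 and 11.42 on MN1 arrays, against 10.95, 9.61 and 10.77 on empty vector arrays; it was picked with its values known, as the 1 gene of the 6 whose groups did not overlap. Rsad2 and Ifit1, both antiviral genes, differed by only 0.04 and 0.11. The 8 genes of the NF-kB response had 1 higher and 7 lower, and a median of -0.11. The part of either response in the Cfb values was not tested. The nearest profiles to Cfb were those of Gbgt1, a glycosyltransferase gene, at a distance of 0.30, and Clmp, an adhesion molecule gene, at 0.32.

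Cfp (probe set 10603860) measured 11.41, 11.15 and 12.07 on MN1 arrays, against 11.80, 11.73 and 11.75 on empty vector arrays. The empty vector arrays were nearly equal, with an SD of 0.04, and the MN1 arrays lay on both sides of them, with replicate 3 above and the other MN1 arrays below. The log2 difference was -0.22 ± 0.23 (SE), or 1.16-fold; it was -0.48 without MN1 replicate 3, -0.15 without MN1 replicate 1 and -0.02 without MN1 replicate 2. Neutrophils are a known source of properdin, and 12 of 13 neutrophil genes were lower with MN1, at a median log2 difference of -1.06. Their mean level ran from 9.06 to 9.71 with MN1 and was 10.67, 11.72 and 8.52 on the empty vector arrays, where Cfp was nearly level. On empty vector replicate 3 the neutrophil mean was below that of every MN1 array. The part of neutrophil content in the Cfp values was not tested.

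Of the receptors for the anaphylatoxins, C3ar1 was higher with MN1, while the groups overlapped for C5ar1. Both receptors were highest on MN1 replicate 1 and had the same order among the MN1 arrays. C3ar1 (probe set 10547657), the receptor for the peptide released from C3, measured 12.53, 11.47 and 11.91 on MN1 arrays, against 11.12, 10.76 and 11.39 on empty vector arrays. MN1 replicate 1 was highest and empty vector replicate 2 lowest, and the groups were parted by 0.08. The difference was 0.88 ± 0.29 (SE, log2; n = 3 each), or 1.84-fold, and it was 0.60 without MN1 replicate 1.

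C5ar1 (probe set 10560242), the receptor for the peptide released from C5 and a chemoattractant receptor of neutrophils and monocytes, measured 9.91, 7.99 and 9.13 on MN1 arrays, against 8.75, 9.72 and 9.84 on empty vector arrays. The groups overlapped: the highest and the lowest array were both MN1 arrays, replicate 1 and replicate 2. The log2 difference was -0.42 ± 0.52 (SE), or 1.34-fold, and it was 0.09 without MN1 replicate 2 and -0.87 without MN1 replicate 1. C5ar2, a second receptor for the same peptide that does not signal through G proteins, lies next to C5ar1 on chromosome 7. It measured 7.58, 7.05 and 7.03 on MN1 arrays, against 7.67, 8.03 and 7.36 on empty vector arrays, with a log2 difference of -0.47 ± 0.22 (SE) and an adjusted p of 0.594 (limma).

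The profiles of the receptors were apart by 0.80 log2 units, whereas C3ar1 was 0.49 to 0.69 from the C1q chains and C5ar1 1.22 to 1.40. C3ar1 was also 0.64 from Hc and 0.69 from Cfp, so it was not near the C1q chains alone. The distances depend on how far each gene ranges and include the difference between the groups. The genes nearest to C3ar1 were Aig1, at 0.08, and Zranb3, at 0.09. Those nearest to C5ar1 were Kdm6b, a histone demethylase gene, at 0.20, and Gadd45a, a stress-response gene, at 0.23.

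The promoters of C3ar1 (chr6:122856108-122856407) and C5ar1 (chr7:16259289-16259588), both GRCm38.p6 on the minus strand, are shown to set the receptors beside one another, with the same motifs in capitals. Of the AGGAAG matches in C5ar1, the pair nearest the start site overlap.
C3ar1: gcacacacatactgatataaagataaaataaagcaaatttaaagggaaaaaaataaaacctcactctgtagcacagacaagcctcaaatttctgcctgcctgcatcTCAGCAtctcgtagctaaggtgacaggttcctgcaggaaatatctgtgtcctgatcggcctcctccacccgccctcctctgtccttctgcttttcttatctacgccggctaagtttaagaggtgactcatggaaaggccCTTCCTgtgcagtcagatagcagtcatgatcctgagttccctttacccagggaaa
C5ar1: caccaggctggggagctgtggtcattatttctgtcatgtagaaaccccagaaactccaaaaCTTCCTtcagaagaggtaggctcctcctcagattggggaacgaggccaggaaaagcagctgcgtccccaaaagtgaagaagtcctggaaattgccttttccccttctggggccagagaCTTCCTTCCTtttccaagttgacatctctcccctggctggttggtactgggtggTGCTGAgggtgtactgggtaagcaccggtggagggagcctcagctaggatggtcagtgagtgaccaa
C3ar1 held AGGAAG at 1 place and TGCTGA at 1, and C5ar1 held AGGAAG at 3 places and TGCTGA at 1. The promoters of Cfp and Hc held 0 matches to any of the motifs, so AGGAAG was in 4 and TGCTGA in 3 of the 6 promoters.

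Hc (probe set 10481962), the gene of complement C5, measured 4.62, 4.86 and 4.71 on MN1 arrays, against 4.57, 4.95 and 4.77 on empty vector arrays. All values lay within 0.37 log2 units and the groups overlapped. The log2 difference was -0.03 ± 0.13 (SE), and 22.4% of genes had a lower mean value, so the probe set was near the dim end of the array, where RMA pulls values together. Brightness also depends on the probes, and no detection call was available.

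**Figure D3:**
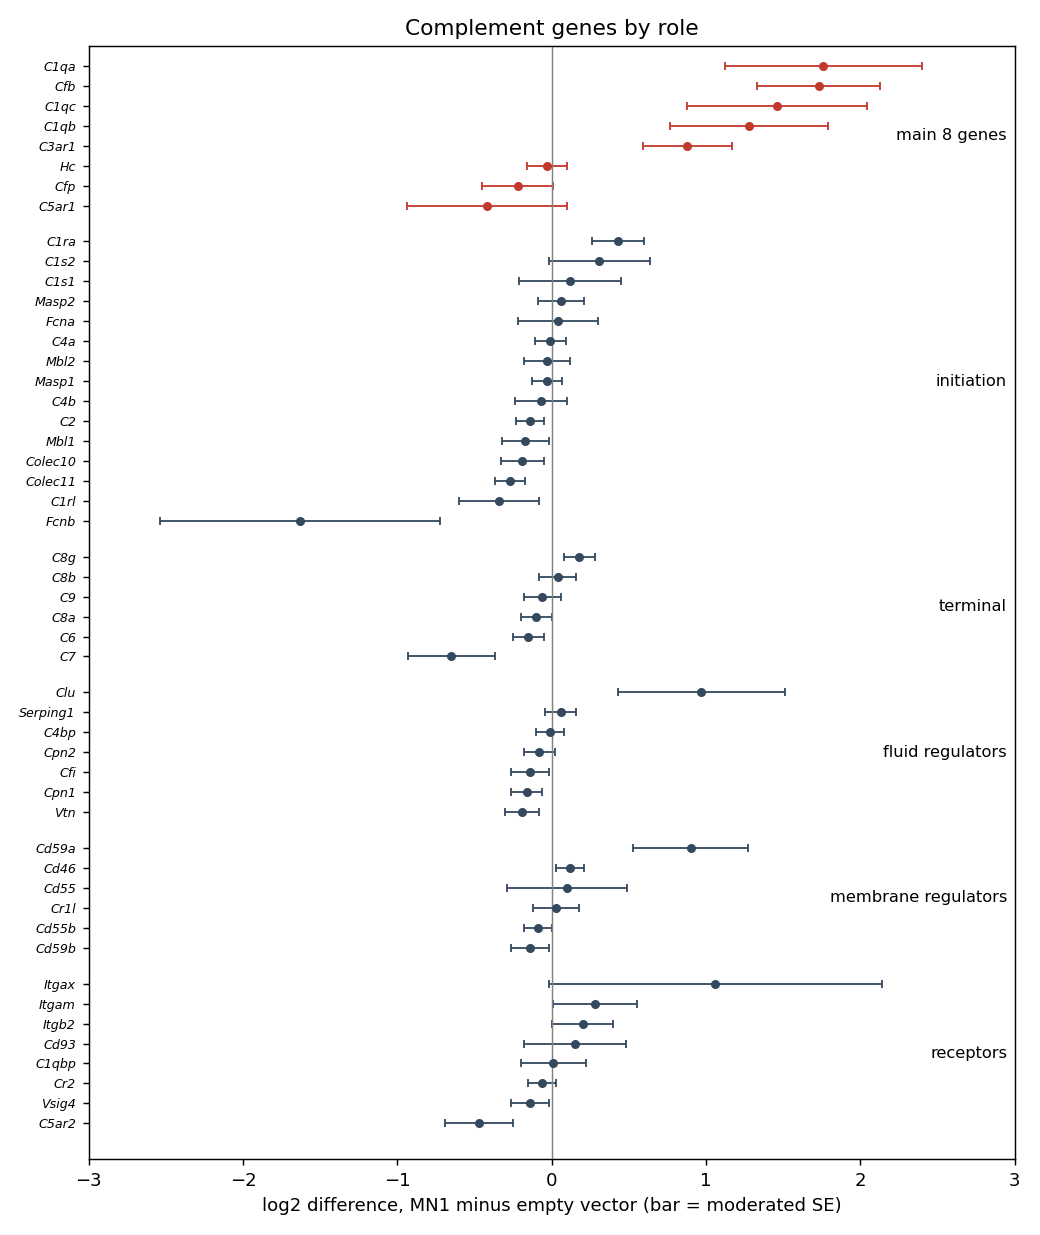
Log2 difference, MN1 minus empty vector (x axis), with its moderated SE as bars, for the 8 genes described above (red) and the 42 other complement genes by role (dark). The C1q chains, Cfb and C3ar1 lie right of 0, while most other genes, many of them dim, lie within 0.5 of it.

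The rest of the pathway was read from a list of 46 other complement genes, of which 42 were measured. By limma, 0 rose and 0 fell after adjustment over all genes, where the smallest adjusted p in the list was 0.584. Before adjustment, at p under 0.05, 2 were higher (C1ra and Cd59a) and 1 lower (Colec11), against 4.17% and 4.23% of all genes. In all, 18 lay above 0 and 24 below, and the median log2 difference was -0.03, the same as over all genes. After median-centring the split was 21 to 21, and after quantile normalization 19 to 23, so the balance of this list has no settled direction. Many of the 42 were dim, where RMA pulls values together: 7.15% of genes had a lower mean value than C9 and 11.2% than C6. Others were bright, such as Itgb2, at 98.9%. A small difference in a dim gene does not show that the gene was unchanged. The groups did not overlap for 5 of the 42: MN1 was above for 1 gene, C8g, and below for 4, Colec11, C2, C7 and Cpn1, against 5.71% and 10.3% of all genes. The gaps between the groups were narrow: -0.13 for Colec11, -0.05 for C2, -0.02 for C7 and, as rounded, 0.0 for C8g and Cpn1.

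Among the genes that start the classical and lectin pathways, 5 of 15 were higher and 10 lower, or 7 and 8 after either rescaling. Fcnb, the ficolin of neutrophil granules, measured 5.70, 6.03 and 5.19 on MN1 arrays, against 7.18, 9.26 and 5.38 on empty vector arrays. It was highest on empty vector replicate 2, the array with the highest neutrophil mean, and the groups overlapped. Its log2 difference was -1.63 ± 0.91 (SE, limma adjusted p = 0.607). The part of neutrophil content in the Fcnb values was not tested. C1ra, a protease that C1q carries, differed by 0.43 ± 0.17 (adjusted p = 0.584), C1rl by -0.34 ± 0.26 (adjusted p = 0.679) and C1s2 by 0.31 ± 0.33 (adjusted p = 0.758). C1ra and C1s2 averaged under 5 in both groups.

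The terminal genes, which build the membrane pore, had 2 of 6 higher and 4 lower. C7 differed by -0.65 ± 0.28 (limma adjusted p = 0.584), C8g by 0.18 ± 0.10, C6 by -0.15 ± 0.10 and C8a by -0.10 ± 0.10. Of 7 soluble regulators, 2 were higher and 5 lower, or 3 and 4 after either rescaling. Clu, the chaperone clusterin, measured 9.82, 8.59 and 7.79 on MN1 arrays, against 8.42, 7.60 and 7.25 on empty vector arrays. Its groups overlapped and its log2 difference was 0.97 ± 0.54 (SE; limma adjusted p = 0.608), while Vtn, Cpn1 and Cfi differed by -0.19 to -0.14.

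Of 6 membrane regulators, which protect host cells, 4 were higher and 2 lower, or 3 and 3 after quantile normalization. Cd59a, the inhibitor of the pore, measured 6.08, 5.59 and 7.03 on MN1 arrays, against 5.21, 5.11 and 5.67 on empty vector arrays, a log2 difference of 0.90 ± 0.37 (SE; limma adjusted p = 0.584). Only MN1 replicate 2 lay among the empty vector values. Its paralog Cd59b differed by -0.14 ± 0.12, Cd46 by 0.12 ± 0.09 and Cd55, which speeds decay of the C3 convertase, by 0.10 ± 0.39.

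Of 8 other receptors, 5 were higher and 3 lower, or 4 and 4 after quantile normalization. Itgax, the CD11c chain of complement receptor 4, measured 11.46, 11.01 and 8.02 on MN1 arrays, against 10.76, 8.29 and 8.26 on empty vector arrays. High and low arrays stood in both groups, and the log2 difference was 1.06 ± 1.08 (SE; limma adjusted p = 0.740). Itgam and Itgb2, the chains of complement receptor 3, differed by 0.28 ± 0.27 and 0.20 ± 0.20. Vsig4, the complement receptor of resident tissue macrophages, picked with its values known, lay between 3.43 and 3.77 on all 6 arrays. It was dim, with 4.59% of genes lower in mean value, so it can show little.

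**Figure D4:**
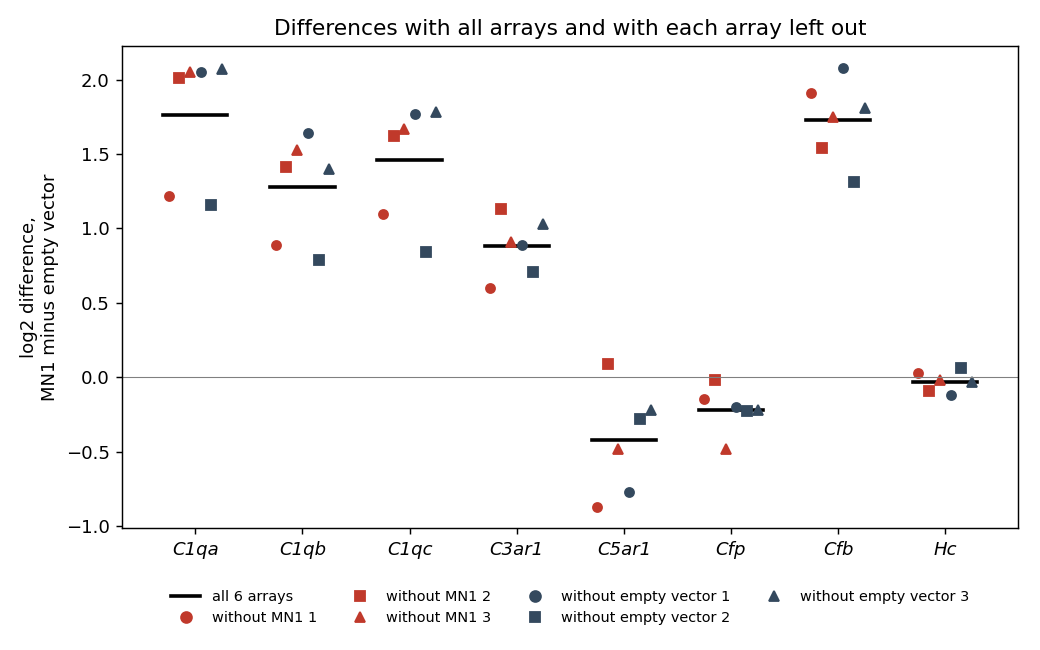
Log2 difference, MN1 minus empty vector (y axis), of the 8 complement genes with all 6 arrays (black lines) and with each array left out in turn (points). The C1q chains, C3ar1 and Cfb stayed above 0 in every case, and C5ar1 crossed 0 without MN1 replicate 2.

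Leaving out 1 array at a time kept C1qa between 1.16 and 2.07, C1qb between 0.79 and 1.64, C1qc between 0.84 and 1.78, C3ar1 between 0.60 and 1.13 and Cfb between 1.31 and 2.08. The lowest value came without empty vector replicate 2 for the C1q chains and Cfb, and without MN1 replicate 1 for C3ar1. Since the groups do not overlap for these 5 genes, the sign in these repeats was fixed by that and is no further evidence.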

How the data were processed

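Biotin-labelled target made from 200 ng of total RNA was hybridised to one-colour arrays, per the labels' protocols. The values are log2 expression per probe set as the authors deposited them, processed by RMA according to the submitters' processing notes; the sources used here give no version, software or build. That they are log2 follows from their span, 2.29 to 14.80. RMA compresses dim values. All 6 columns were used.

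Of 35557 probe sets, 21789 had 1 gene symbol by the 2016 annotation, 1621 had several and 12147 had none; 999 genes had several probe sets, and the brightest was kept. Groups came from the sample titles. The members and lists were chosen with earlier results of these data known. Named were the 8 measured members, the 4 other complement genes per role with the largest difference, Mn1, and the nearest profiles by root mean square distance; other genes named are said to be picked with values known, or are markers given as examples. The test was limma 3.58.1 (R 4.3.3), two-sided, Benjamini-Hochberg over 19938 genes, threshold 0.05; it was tested on simulated data. P-values measure the spread between arrays. Alternatives were a replicate block, median-centring, quantile normalization, removal of the dimmest 40% of genes, probe sets averaged per gene, an intensity trend with robust prior, and each array left out.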

Additional observations from a re-analysis of the deposited data

How the results depend on the processing

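The count of genes past an adjusted p of 0.05 was 0, over all genes and among the other complement genes, under every alternative run, with smallest adjusted p values over all genes from 0.0989 to 0.935. The count at an unadjusted p under 0.05 was 1675 with all genes and arrays and 850 without the dimmest 40% of genes, where fewer genes were tested. With an array left out it ran from 906, without empty vector replicate 2, to 1953, without empty vector replicate 3. Same-numbered arrays were checked for pairing: their deviations from the group means correlated across genes at 0.13, 0.07 and 0.32, and MN1 replicate 2 correlated more with empty vector replicate 1, at 0.44, so the numbers were not taken as pairs, although the arrays numbered 3 stood apart together on the second principal component. With the replicate block 1140 genes were higher and 840 lower at an unadjusted p under 0.05 by limma. With the intensity trend and robust prior 673 were higher and 1000 lower. The block cannot move a difference in this balanced design, so the mean of the C1q chains was 1.50 there by construction. That mean was 1.53 after median-centring, 1.46 after quantile normalization and 0.93 to 1.82 with an array left out. The median of the complement members was 1.28 without the dimmest genes, where Hc is removed, and 0.74 to 1.27 with an array left out. Of the single members, C5ar1 turned to 0.09 in 1 of 12 alternatives, without MN1 replicate 2, and Hc was at or above 0 in 4 of 11, at up to 0.06. The cause was not tested. The block, the intensity trend, probe set averaging and removal of dim genes cannot move the difference of a member that is kept. These counts therefore overstate how steady the members were. The median of the other complement genes was 0.07 without the dimmest genes, against -0.03. Brightness limits what Hc can show.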
